A study of Mus musculus with 8 samples.

Results

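The genes examined here are the amino acid transporters of the mouse ovary: the solute carrier families Slc1, Slc6, Slc7, Slc36, Slc38 and Slc43 and the heavy chains Slc3a1 and Slc3a2, chosen by gene symbol through the RefSeq accession of each probe, without the cystine transporter Slc7a11. Of the 20145 gene symbols on the array, 58 were members, with 75 probes, and 47 members had a probe that could be tested. Slc6a5 and Slc6a16 also fit the rule but had no probe. RNA from ovaries of mice of 33 weeks was hybridised to 8 one-colour Agilent arrays (Cy3), of which 3 held wildtype ovary and 5 held ovarian neoplasia. The neoplasia mice carried the genotype Pgrcre/+mPgrLsL/+, which the series' design text writes as Pgrcre/+PgrBLsL/+. Either form names a Cre recombinase under control of the progesterone receptor gene Pgr together with a progesterone receptor allele behind a loxP-flanked stop cassette, so that the allele is switched on in cells that have expressed Cre. Mice of both groups were cycling when ovaries were taken. The wildtype mice carried neither allele by their label. No label says whether an array held the RNA of 1 animal, and p-values therefore describe only how these samples vary, which may be technical.

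Amino acids cross membranes through families of carriers that differ in substrate and in what drives them. Slc1 carriers take up glutamate or small neutral amino acids with sodium, Slc6 carriers take up neurotransmitters, osmolytes and neutral amino acids with sodium and chloride, and Slc38 carriers move glutamine, alanine and other small neutral amino acids. Slc7 light chains are exchangers that reach the surface bound to a heavy chain, Slc3a1 or Slc3a2, whereas the cationic carriers of the same family need none. In the Slc36 family, Slc36a1 and Slc36a2 use protons, and Slc43a1 and Slc43a2 move large neutral amino acids. Several members have substrates that are not amino acids, among them creatine (Slc6a8), monoamines (Slc6a2, Slc6a3, Slc6a4) and nucleobases (Slc43a3). In the ovary the cumulus granulosa cells are known to take up amino acids for the oocyte, with Slc38a3 as 1 of their carriers, and the oocyte itself accumulates glycine through Slc6a9.

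Levels below are log2 of the processed spot signal minus the 75th percentile of that signal on the array, so that a level of 0 is the 75th percentile, and they are compared between arrays for 1 gene and never between genes. A difference is the neoplasia mean minus the wildtype mean of these levels, with the standard error (SE) of limma's moderated linear model. A gene was called at a Benjamini-Hochberg adjusted p under 0.05 over 25227 tested features. In whole tissue, fewer cells of a type and less RNA per cell cannot be told apart.

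The transporters went in both directions. Of the 47 tested members, 11 were called higher and 9 lower in the neoplasia, and 27 did not pass. That is 42.6% called, beside 30.4% of all tested features (16.8% higher and 13.5% lower). At least 2-fold differences were called for 16 members, and 22.1% of all features met that rule. The groups did not overlap for 22 members, or 46.8%, beside 39.1% of all features. The median difference of the members was -0.07 on the log2 scale, beside 0.13 for all features, and the median size of a difference without its sign was 0.97, beside 0.64. The largest rises were in Slc6a12, Slc38a4, Slc6a18 and Slc6a19, of which Slc6a18 and Slc6a19 were not above background on any wildtype array, and the largest falls were in carriers that dropped to or near background in the neoplasia (Slc38a3, Slc6a15 and Slc36a3). Between these lay moderate rises of the heavy chain Slc3a2 and its light chain Slc7a5.

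**Figure D1:**
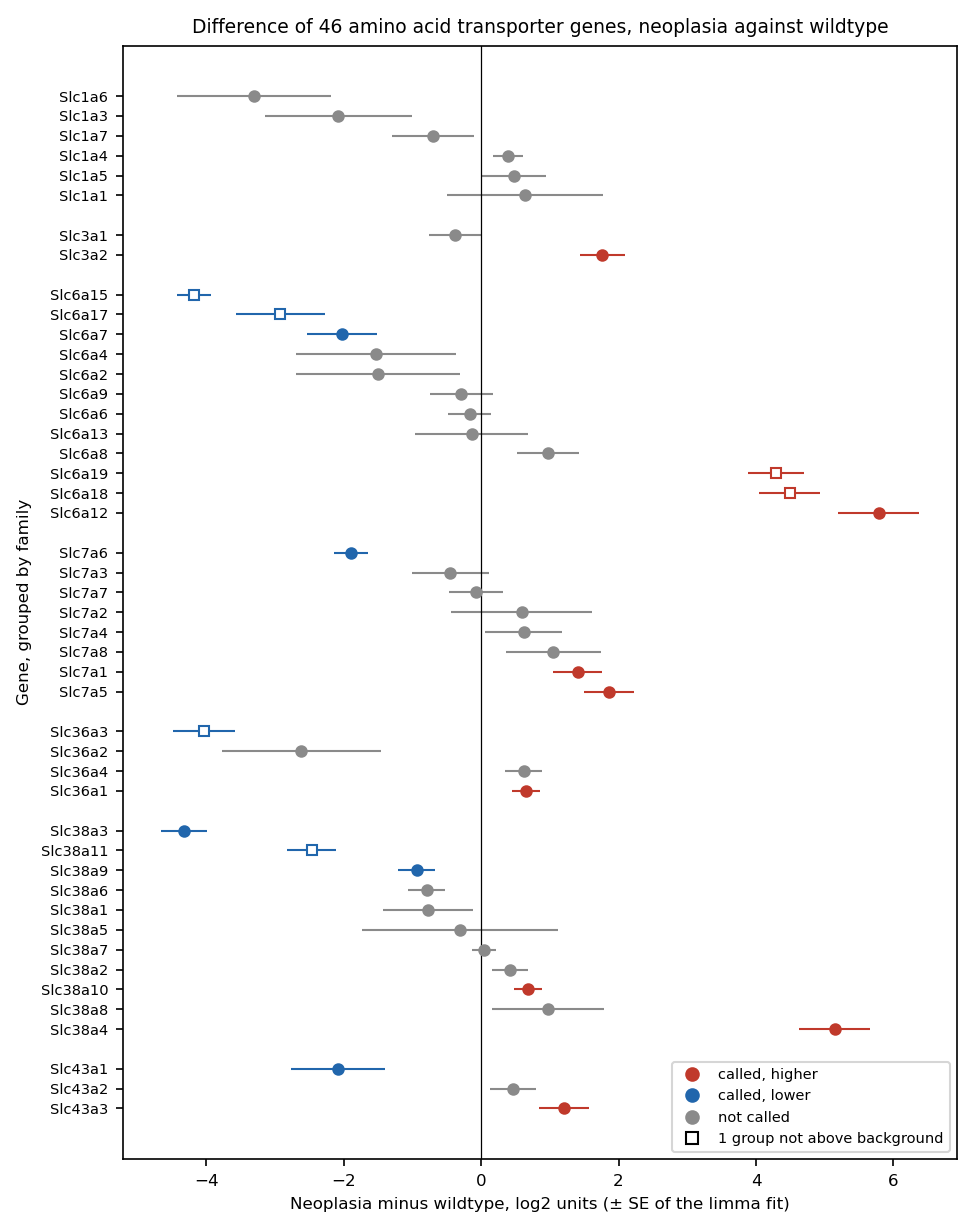
Difference of 46 of the 47 tested transporter genes between neoplasia (5 arrays) and wildtype (3 arrays), in log2 units on the horizontal axis, with the SE of the limma model as the bar and genes grouped by family. Red points are genes called higher (10 drawn), blue points the 9 called lower and grey points the 27 not called. An open square marks a gene that was not above background on any array of 1 group, so that its fitted difference is no measured fold. The difference ran from -4.32 (Slc38a3) to 5.78 (Slc6a12).

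By family, Slc6 had 4 genes higher and 3 lower of 13 tested, Slc38 had 2 higher and 3 lower of 11, and Slc7 had 2 higher and 1 lower of 8. Slc36 and Slc43 each had 1 higher and 1 lower, of 4 and 3 tested. Of the 2 heavy chains 1 was higher, and of 6 tested Slc1 genes none passed, with differences from -3.31 to 0.64.

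The calls depended on a few choices. All arrays lay on 1 slide, with neoplasia 1 to 4 in its first row and neoplasia 5 with the 3 wildtype arrays in its second. With the slide row as a block, or within the second row alone, the difference rests on neoplasia 5 against wildtype. As a block, 4 members stayed higher (Slc6a12, Slc38a4, Slc6a18, Slc6a19) and 4 lower (Slc38a3, Slc6a15, Slc36a3, Slc7a6). Scaling on spike-in controls, which lay between 9.13 and 9.22 on the wildtype arrays, at 8.05 on neoplasia 1 and between 9.29 and 9.85 on the other neoplasia arrays (mean log2 signal), left the same 4 higher (Slc6a12, Slc38a4, Slc6a18, Slc6a19) and lowered the median of all features to -0.47. Of the called members, the higher ones made up 55.0% on the 75th percentile scale, 66.7% after normexp background correction, 41.2% in the authors' deposited log2 values, 26.7% with spike-in scaling and 72.7% when a probe had to exceed background on every array. Over all called features the same shares were 55.4%, 66.3%, 19.9%, 15.2% and 67.6%. With normexp the calls of Slc38a11, Slc43a1, Slc6a17 and Slc6a7 were lost, and the differences of Slc6a15, Slc36a3, Slc7a6, Slc6a18 and Slc6a19 shrank to -0.83, -0.96, -1.03, 1.44 and 1.44 and stayed called. Without any 1 of the wildtype arrays, 6 members were called higher, and without wildtype 1, 5 were lower. Without neoplasia 4, 7 were higher. Across all 8 omissions of an array, 11 of the 20 calls held: Slc3a2, Slc7a5, Slc7a6, Slc6a12, Slc6a15, Slc6a18, Slc6a19, Slc36a3, Slc38a3, Slc38a4 and Slc38a11.

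Slc3a2 (also CD98 or 4F2hc), the heavy chain that carries light chains to the plasma membrane, and Slc7a5 (LAT1), the light chain for leucine and other large neutral amino acids, were both higher in every neoplasia array than in any wildtype array. The level of Slc3a2 was 4.82, 4.57 and 4.89 on wildtype 1 to 3 and 6.90, 6.16, 6.95, 6.93 and 5.69 on neoplasia 1 to 5. Neoplasia 5 was nearest to wildtype, and the groups did not overlap. The difference was 1.77 ± 0.33 (SE), or 3.40-fold (limma adjusted p = 0.00737). For Slc7a5 the wildtype levels were 0.75, 0.78 and 1.06, and the neoplasia levels were 2.71, 2.49, 3.37, 3.25 and 1.78. Again neoplasia 5 was the lowest of its group. The rise was 1.86 ± 0.36 (SE), or 3.62-fold (limma adjusted p = 0.0086), and the other Slc7a5 probe differed by 1.34 (adjusted p = 0.0635). Neither gene passed with spike-in scaling (1.17 and 1.26, adjusted p = 0.185 and 0.137) or with slide row as a block (0.93 and 0.92, adjusted p = 0.194 and 0.224).

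None of the other tested light chains of Slc3a2 was called higher. Slc7a6 (y+LAT2), an exchanger of cationic for neutral amino acids, lay at -1.17, -1.50 and -0.80 in wildtype and at -2.76, -2.93, -3.21, -3.46 and -2.88 in the neoplasia. All neoplasia levels were below all wildtype levels, and the gene fell by 1.89 ± 0.24 (SE) on the log2 scale (limma adjusted p = 0.00145). Its relative Slc7a7 (y+LAT1) lay at 2.65, 2.18 and 2.71 in wildtype and at 1.76, 2.93, 3.18, 1.67 and 2.66 in the neoplasia, with overlapping groups and a difference of -0.07 ± 0.39 (SE, adjusted p = 0.901). Slc7a8 (LAT2), another carrier of neutral amino acids, lay at 2.62, 1.72 and 2.78 in wildtype and was more scattered in the neoplasia, at 4.98, 2.26, 4.22, 3.64 and 1.99997. Neoplasia 1, 3 and 4 were above the wildtype range and neoplasia 2 and 5 within it, and the difference of 1.05 ± 0.69 (SE) did not pass (adjusted p = 0.269). Slc7a10 (Asc-1) was above background on 2 wildtype arrays and on no neoplasia array and was not tested.

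The heavy chain Slc3a1 (rBAT), which with the light chain Slc7a9 takes up cystine and cationic amino acids in the kidney, was near background. Background was exceeded on 2 wildtype arrays and 1 neoplasia array. Its levels were -4.98, -4.43 and -4.86 in wildtype and -5.14, -6.10, -4.79, -4.28 and -5.36 in the neoplasia, with overlapping groups (difference -0.38 ± 0.39 (SE), adjusted p = 0.474). Slc7a9 was above background on 2 wildtype arrays and no neoplasia array. Slc7a12, Slc7a13 and Slc7a14 were not above background on any array, and Slc7a15 reached it on at most 1 array with either of its probes.

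**Figure D2:**
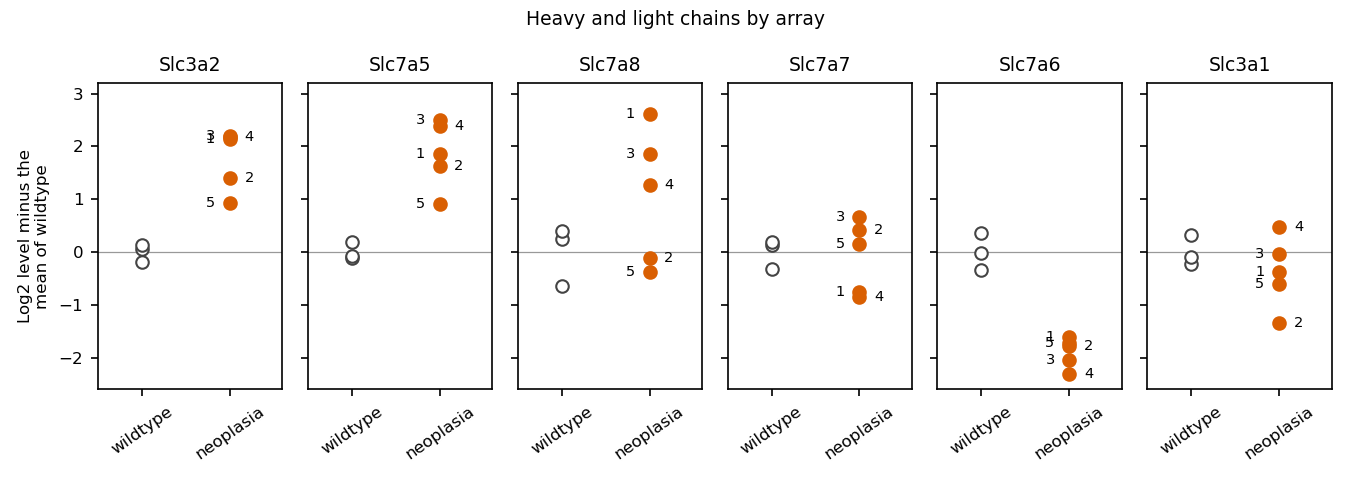
Levels of Slc3a2, its light chains Slc7a5, Slc7a8, Slc7a7 and Slc7a6, and the heavy chain Slc3a1 on each array, in log2 units minus the wildtype mean of the gene. Open circles are the 3 wildtype arrays and filled circles the 5 neoplasia arrays, numbered by replicate. Slc3a2 and Slc7a5 lay above and Slc7a6 below wildtype on all 5 neoplasia arrays, and the groups of the other 3 genes overlapped.

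Among the cationic carriers that need no heavy chain, Slc7a1 (CAT1), the widely expressed carrier of arginine and lysine, was higher. It lay at 2.60, 2.22 and 2.60 in wildtype and at 4.24, 3.13, 3.74, 4.73 and 3.56 in the neoplasia. The groups did not overlap, with neoplasia 2 the nearest to wildtype. The difference was 1.41 ± 0.36 (SE), or 2.65-fold (limma adjusted p = 0.0222). Leaving out wildtype 1, 2 or 3 ended the call (adjusted p up to 0.0878), as did spike-in scaling (0.81, adjusted p = 0.393) and slide row as a block (1.09, adjusted p = 0.300). The related Slc7a2, Slc7a3 and Slc7a4 differed by 0.59, -0.44 and 0.62 and did not pass, and Slc7a2 spanned -5.25 to -0.92 among the neoplasia arrays.

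The sequence upstream of the start of each gene that follows is given to set the heavy chain and the cationic carrier just described beside the genes with the largest rises that have an entry in the promoter table, Slc6a12, Slc38a4 and Slc6a19, which are described next. The 250 bases before the start listed in that table were taken from RefSeq (GRCm38.p6), 5′ to 3′ on the gene's strand, with each CG dinucleotide in capitals. For Slc3a2 and Slc6a19 that start is an internal one, inside the span of the gene, and for the other genes it is at the edge of the span. They lie at chr19:8713898-8714147 (Slc3a2, minus strand), chr5:148399905-148400154 (Slc7a1, minus), chr6:121342324-121342573 (Slc6a12, plus), chr13:73692637-73692886 (Slc6a19, minus) and chr15:97055957-97056206 (Slc38a4, minus).
Slc3a2: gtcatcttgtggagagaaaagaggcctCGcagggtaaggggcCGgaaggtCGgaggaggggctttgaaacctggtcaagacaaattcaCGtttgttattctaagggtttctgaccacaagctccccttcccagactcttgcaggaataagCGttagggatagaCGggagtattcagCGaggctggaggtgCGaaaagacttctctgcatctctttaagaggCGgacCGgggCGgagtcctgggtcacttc
Slc7a1: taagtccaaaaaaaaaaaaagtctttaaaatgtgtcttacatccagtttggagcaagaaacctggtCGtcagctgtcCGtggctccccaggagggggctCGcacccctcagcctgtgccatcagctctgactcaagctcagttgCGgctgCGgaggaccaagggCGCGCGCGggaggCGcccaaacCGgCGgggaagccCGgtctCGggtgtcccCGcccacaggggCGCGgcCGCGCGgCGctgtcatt
Slc6a12: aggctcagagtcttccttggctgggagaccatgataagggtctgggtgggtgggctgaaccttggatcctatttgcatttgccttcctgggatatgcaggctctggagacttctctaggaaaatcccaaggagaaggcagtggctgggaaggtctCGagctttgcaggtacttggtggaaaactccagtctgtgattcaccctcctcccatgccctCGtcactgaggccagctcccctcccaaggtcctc
Slc6a19: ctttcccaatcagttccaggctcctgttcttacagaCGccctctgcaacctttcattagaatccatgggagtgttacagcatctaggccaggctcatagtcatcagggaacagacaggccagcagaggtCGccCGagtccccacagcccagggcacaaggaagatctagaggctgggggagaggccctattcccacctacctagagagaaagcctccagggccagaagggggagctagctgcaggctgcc
Slc38a4: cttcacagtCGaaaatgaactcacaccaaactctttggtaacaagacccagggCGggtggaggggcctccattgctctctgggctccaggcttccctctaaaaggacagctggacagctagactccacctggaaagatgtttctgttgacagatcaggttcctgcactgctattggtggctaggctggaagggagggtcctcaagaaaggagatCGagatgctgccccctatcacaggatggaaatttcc
These stretches held 11 CG dinucleotides for Slc3a2 and 21 for Slc7a1, and 2, 3 and 3 for Slc6a12, Slc6a19 and Slc38a4. With the 50 bases after the start included, a promoter window had 300 bases, and the same genes in this order had 15, 27, 2, 4 and 5. The median over all 32851 windows of the table was 7. In these windows the other higher genes with an entry, Slc36a1 and Slc38a10, had 15 and 17. Of the 6 lower genes with an entry, Slc36a3 had 1 CG and the other genes had 16 to 41. In all, 40 of the 58 members had an entry.

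Motifs were searched as letters on both strands of the 300-base windows, of which the members had 60. The core of the amino acid response element, TGATGNAA, was in 4 member windows (6.67%), beside 3.97% of all windows. These belonged to Slc1a4, Slc6a21 and Slc7a7, none of which was called. Slc7a7 had overlapping windows that shared a match, so that site was counted more than once. Of the 20 called members only 13 had a window, and Slc7a5 was among those not searched. The progesterone response element palindrome was in 1 member window, that of Slc38a11, beside 0.475% of all windows. The GC box GGGCGG was in 33 member windows (55.0%), beside 35.7% of all, and the TATA box TATAAA in 6 (10%), beside 13.6%. A match is a run of letters and was not tested for binding.

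Slc6a12 (BGT1), which takes up betaine and GABA and is known from the kidney medulla and the liver, had the largest difference of all members on the 75th percentile scale. In wildtype 1 array of 3 was above background, and in the neoplasia all 5 were. The levels were -5.59, -6.01 and -3.49 in wildtype and 1.67, 0.60, 0.82, 0.69 and -0.0012 in the neoplasia. The lowest neoplasia array was more than 3 log2 units above the highest wildtype array. The fitted difference of 5.78 ± 0.59 (SE, limma adjusted p = 0.000472) rests in part on wildtype signals below background, and it was 3.62 with normexp background correction, where that of Slc38a4 was larger (4.08). Its neighbour on chromosome 6, Slc6a13, a carrier of GABA and taurine, differed by -0.14 and did not pass.

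Slc6a18 (B0AT3) and Slc6a19 (B0AT1) are carriers of neutral amino acids known from the kidney tubule and, for Slc6a19, the small intestine. They lie next to each other on chromosome 13 and were above background on neoplasia arrays only. Slc6a18 lay at -7.16, -7.18 and -7.34 in wildtype, not above background on any array, and at -2.27, -2.01, -2.50, -2.77 and -4.12 in the neoplasia, above background on every array. Its fold was set against a floor, the lowest signal of any probe above background on an array. Slc6a18 was 11.7-fold higher against that floor (limma adjusted p = 0.000396 for the fitted difference). The floor is not the detection limit of the probe itself, so such a fold is no lower bound. The other Slc6a18 probe was above background on 4 neoplasia arrays and on 0 wildtype arrays. Slc6a19 lay at -7.49, -6.31 and -6.99 in wildtype, again not above background, and at -2.31, -2.06, -2.41, -2.78 and -3.65 in the neoplasia. Against the floor it was 12.4-fold higher (limma adjusted p = 0.000329 for the fitted difference). In both genes neoplasia 5 was the lowest of the neoplasia arrays.

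Slc6a18 and Slc6a19 are known to need a partner protein at the membrane, which in the kidney is collectrin (Cltrn). Cltrn was on the array and had no probe above background on 3 arrays. The related proline carrier Slc6a20a was higher by 2.26 ± 0.63 (SE, limma adjusted p = 0.0301), a call that ended on leaving out wildtype 1, 2 or 3 or neoplasia 4 (adjusted p up to 0.116). Of 7 tested kidney tubule markers, 3 were higher and 1 lower. The endocytic receptor Lrp2 rose by 4.96, the phosphate carrier Slc34a1 by 1.26 and the anion carrier Slc22a6 1.83-fold against the floor. The glucose carrier Slc5a2 fell 3.15-fold against it, and Umod, Slc12a1 and Slc22a8 could not be tested. The count of higher ones fell to 1 on omission of wildtype 2 or 3, and was 1 in the authors' deposited values, under spike-in scaling, and in the fits blocked on slide row or replicate. The summed level of the kidney markers was -1.12 to -0.83 in wildtype and 0.96 to 3.81 in the neoplasia. Of 9 tested liver markers, 4 were higher (Apoa1, Fga, Fgb and Apoh), and the albumin gene Alb did not pass. The summed level of the liver markers was 4.05 to 5.21 in wildtype and 5.90 to 9.18 in the neoplasia. The part of such cells in the levels of Slc6a12, Slc6a18 and Slc6a19 was not tested.

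In the other direction, Slc6a15 (B0AT2), Slc6a17 and Slc6a7, carriers best known from neurons that move branched-chain amino acids, proline or other neutral amino acids, were lower. Slc6a15 lay at -2.81, -2.57 and -2.27 in wildtype and at -6.65, -7.00, -7.14, -6.50 and -6.36 in the neoplasia, where it was not above background on any array. Against the floor it was 9.49-fold lower (limma adjusted p = 2.59e-05 for the fitted difference). Slc6a17 lay at -2.71, -2.51 and -4.74 in wildtype and at -6.92, -7.26, -5.67, -6.25 and -5.10 in the neoplasia, again not above background there. Wildtype 3 was close to neoplasia 5. The gene was 4.88-fold lower against the floor. Its fitted difference was called (limma adjusted p = 0.0138), and the call ended on omission of wildtype 1 or 2 (adjusted p up to 0.0666). The proline carrier Slc6a7 lay at -3.27, -3.92 and -2.29 in wildtype and at -5.49, -4.07, -5.58, -6.04 and -4.75 in the neoplasia, above background on 1 neoplasia array. It fell by 2.02 ± 0.51 (SE, limma adjusted p = 0.0222), and the call ended on omission of wildtype 1 or 3 (adjusted p up to 0.0795).

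Several Slc6 genes did not pass. The creatine carrier Slc6a8 was higher on every neoplasia array (3.19 to 5.04) than on any wildtype array (2.95 to 3.10), with a difference of 0.98 ± 0.45 (SE, adjusted p = 0.127). The glycine carrier Slc6a9 and the taurine carrier Slc6a6 differed by -0.29 and -0.16. The serotonin carrier Slc6a4 and the noradrenaline carrier Slc6a2 spanned over 4 log2 units among the neoplasia arrays and differed by -1.53 and -1.50. Slc6a11, Slc6a14 and Slc6a21 were not above background on any array, and the dopamine carrier Slc6a3 reached it on 1 array.

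**Figure D3:**
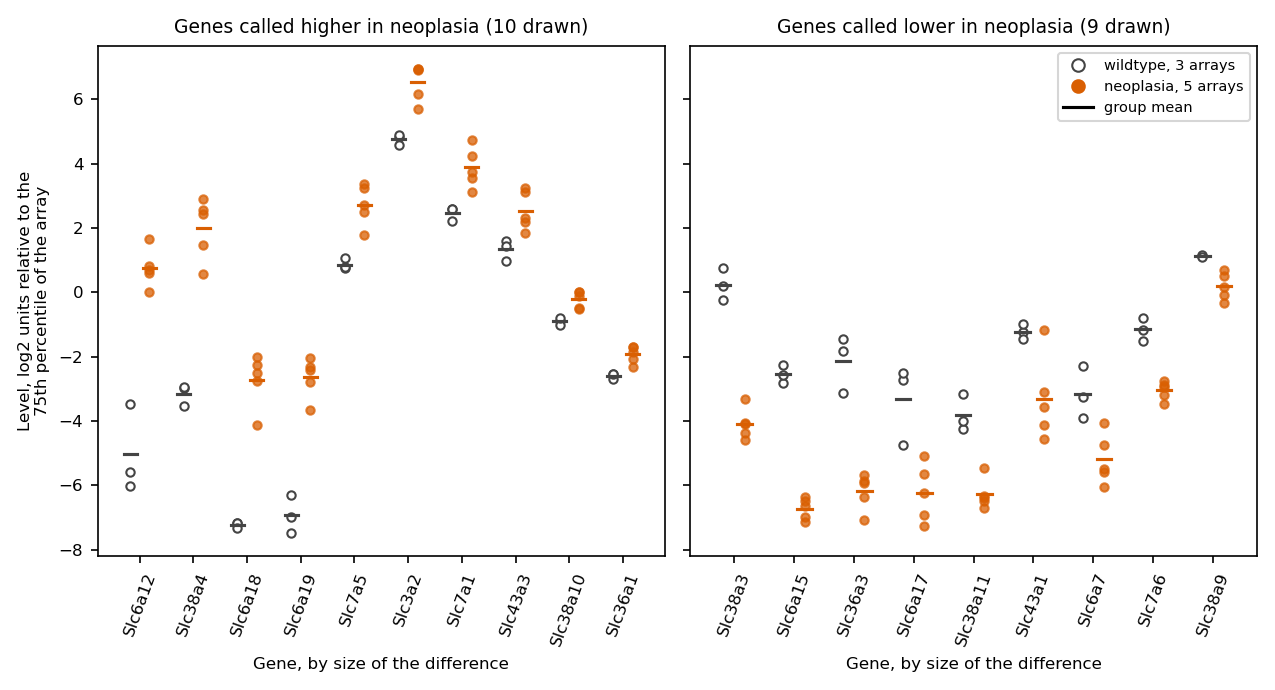
Level of 19 of the 20 called genes on every array, in log2 units relative to the 75th percentile of the array, with open circles for the 3 wildtype arrays, filled circles for the 5 neoplasia arrays and bars for group means. Levels are to be compared within a gene only. Slc43a1 is the called gene whose groups overlap, through neoplasia 5 at -1.18.

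In the Slc38 family the largest differences had opposite signs. Slc38a4 (SNAT4), a carrier of small neutral and cationic amino acids known from the liver and the placenta and paternally expressed in the mouse, lay at -2.98, -2.96 and -3.54 in wildtype and at 2.56, 2.43, 1.47, 2.89 and 0.58 in the neoplasia. It was above background on all 8 arrays, and the lowest neoplasia array was neoplasia 5. The difference was 5.15 ± 0.52 (SE), or 35.4-fold (limma adjusted p = 0.000432), and 3.74 with slide row as a block. The adjacent Slc38a2 and, beyond it, Slc38a1, the widely expressed system A carriers, differed by 0.42 and -0.77 and did not pass. Of 7 tested markers of decidua and placenta, 2 were higher (Prl8a2 and Hand2) and 1 lower (Dio3), with a summed level of 3.02 to 3.11 in wildtype and 4.61 to 8.16 in the neoplasia, and the placental Tpbpa could not be tested. The part of such cells in Slc38a4 was not tested.

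Slc38a3 (SNAT3), a carrier of glutamine and histidine, had the largest fall among the members. It lay at 0.20, -0.25 and 0.75 in wildtype and at -4.37, -3.31, -4.09, -4.08 and -4.59 in the neoplasia, where 2 of 5 arrays were above background. The difference was -4.32 ± 0.34 (SE, limma adjusted p = 0.000118), resting in part on signals below background, and -2.41 with normexp. Slc38a11, whose substrates are poorly known, lay at -4.26, -4.01 and -3.16 in wildtype and at -6.72, -6.40, -5.46, -6.48 and -6.33 in the neoplasia, not above background there. Against the floor it was 3.77-fold lower (limma adjusted p = 0.00239 for the fitted difference). The gene was not called with normexp (-0.08, adjusted p = 0.675) or with slide row as a block (adjusted p = 0.0518).

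Markers of oocytes, granulosa cells and luteal cells were mostly lower. The glycine carrier Slc6a9, named above for the oocyte, differed by -0.29 and did not pass. All 15 tested oocyte markers were lower, and 10 of them, among them Zp1, Zp2 and Bmp15, stayed below background throughout the neoplasia, with a summed level of 5.08 to 5.45 in wildtype and -1.41 to -0.56 in the neoplasia. Of 12 granulosa cell markers, 9 were lower and none higher, and Fshr, Cyp19a1 and Amh stayed below background throughout the neoplasia (summed level 7.67 to 8.18 and 6.30 to 7.06). Of 9 luteal cell markers, 8 were lower and 1 higher. With slide row as a block 4 granulosa cell and 5 luteal cell markers were lower. The part of these cells in the falls of Slc38a3, Slc6a15, Slc6a17, Slc6a7, Slc7a6 and Slc36a3 was not tested.

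Slc38a9 and Slc38a10 differed by less than 2-fold. Slc38a9, a lysosomal carrier that senses arginine for the growth kinase complex mTORC1, lay at 1.13, 1.15 and 1.09 in wildtype and at 0.15, 0.70, 0.50, -0.09 and -0.35 in the neoplasia. It fell by 0.94 ± 0.26 (SE, limma adjusted p = 0.0304), and its other probes differed by -0.87 and -0.95. Slc38a10 lay at -0.89, -1.01 and -0.80 in wildtype and at -0.51, 0.01, -0.00, -0.11 and -0.50 in the neoplasia, a difference of 0.68 ± 0.20 (SE, limma adjusted p = 0.0381). The groups did not overlap in either gene. The call of Slc38a9 ended on omission of wildtype 1, 2 or 3 or of neoplasia 4 (adjusted p up to 0.106), and that of Slc38a10 on omission of wildtype 1, 2 or 3 or of neoplasia 2, 3 or 4 (adjusted p up to 0.137).

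Slc38a5 (SNAT5), a glutamine carrier that did not pass (difference -0.30 ± 1.43 (SE), adjusted p = 0.885), was the most variable member among the neoplasia arrays. Wildtype arrays were close together at 3.50, 3.47 and 3.82. Neoplasia 1 was at -0.42 and neoplasia 3 at 7.48, whereas neoplasia 2, 4 and 5 lay at 2.93, 3.30 and 3.16. The mean of the group thus hid a lower array, a higher array and 3 arrays just below wildtype. Slc38a6 (-0.79), Slc38a7 (0.04) and Slc38a8 (0.97) did not pass.

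Slc36a3, Slc36a2 and Slc36a1 lie in a row on chromosome 11 in that order, and their differences were unlike. Slc36a4 lies apart on chromosome 9. Slc36a3, an orphan member known mainly from the testis, lay at -1.84, -3.15 and -1.46 in wildtype and at -5.69, -5.87, -7.09, -5.93 and -6.36 in the neoplasia, where no array was above background. Against the floor it was 11.7-fold lower (limma adjusted p = 0.000728 for the fitted difference). Its other probe was not above background on any array, and the authors' deposited log2 values, which average all probes of a name, gave -2.32 without a call (adjusted p = 0.205). Slc36a2, a carrier of glycine and proline, differed by -2.61 ± 1.16 (SE, adjusted p = 0.117), with neoplasia 5 (-1.24) inside the wildtype range and neoplasia 1 at -6.63. Slc36a1 (PAT1), which exports amino acids from lysosomes, lay at -2.55, -2.69 and -2.54 in wildtype and at -2.33, -1.71, -1.71, -2.08 and -1.85 in the neoplasia. The rise of 0.66 ± 0.21 (SE) passed narrowly (limma adjusted p = 0.0423). It ended as a call on omission of wildtype 1, 2 or 3 or of neoplasia 2, 3 or 4 (adjusted p up to 0.144). The other Slc36a1 probe differed by 0.66 and did not pass (limma adjusted p = 0.101), and with the mean over probes the call was lost. Slc36a4 differed by 0.62 and did not pass.

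Slc43a1 (LAT3), a carrier of large neutral amino acids that works without a heavy chain, was lower on 4 of 5 neoplasia arrays. It lay at -1.22, -0.998 and -1.45 in wildtype and at -4.57, -4.12, -3.55, -3.10 and -1.18 in the neoplasia. Neoplasia 5 was inside the wildtype range. The fall of 2.08 ± 0.68 (SE) on the log2 scale was at the edge of the threshold (limma adjusted p = 0.04998), was lost on leaving out any array other than neoplasia 5 (adjusted p up to 0.144). With slide row as a block the sign turned, and the difference was 0.040 (adjusted p = 0.971). Slc43a2 (LAT4) differed by 0.47 and did not pass. Slc43a3, the nucleobase carrier, lay at 1.59, 1.43 and 0.98 in wildtype and at 2.17, 1.84, 3.13, 3.24 and 2.32 in the neoplasia. The groups did not overlap, and the difference was 1.21 ± 0.36 (SE, limma adjusted p = 0.0374), a call that ended on omission of wildtype 1, 2 or 3 or of neoplasia 3 or 4 (adjusted p up to 0.124).

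No Slc1 gene passed. Among the glutamate carriers, Slc1a6 (EAAT4) was lower on every neoplasia array (-5.27, -3.25, -3.53, -1.29 and 0.41) than on any wildtype array (0.56, 0.55 and 1.06), with a wide spread and a difference of -3.31 ± 1.12 (SE, adjusted p = 0.0557). Slc1a3 (EAAT1) differed by -2.08 ± 1.07 (SE, adjusted p = 0.166), and Slc1a7 and Slc1a1 by -0.70 and 0.64. Slc1a2 (EAAT2) reached background on at most 1 array with any of its 3 probes. The neutral carriers Slc1a4 (ASCT1) and Slc1a5 (ASCT2), the latter known for glutamine uptake in growing cells, differed by 0.39 ± 0.21 and 0.48 ± 0.48 (SE, adjusted p = 0.186 and 0.464). All neoplasia levels of Slc1a4 (0.91 to 1.69) were above all wildtype levels (0.75 to 0.87), and those of Slc1a5 overlapped.

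The neoplasia arrays varied more than the wildtype arrays. The SD was larger among neoplasia than among wildtype arrays for 36 of 47 members, and for 21385 of 25227 features. The median SD of the members was 0.29 in wildtype and 0.69 in neoplasia, beside 0.20 and 0.47 over all features. Neoplasia 5 was the neoplasia array nearest to the wildtype mean for 21 of 47 members, for 9 of the 20 called members and for 3452 of 7657 called features. The 75th percentile of signal was 462 to 515 on wildtype and 309 to 429 on neoplasia arrays, and 33754 to 34160 and 29344 to 32931 of 55681 probes were above background. No probe was saturated.

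**Figure D4:**
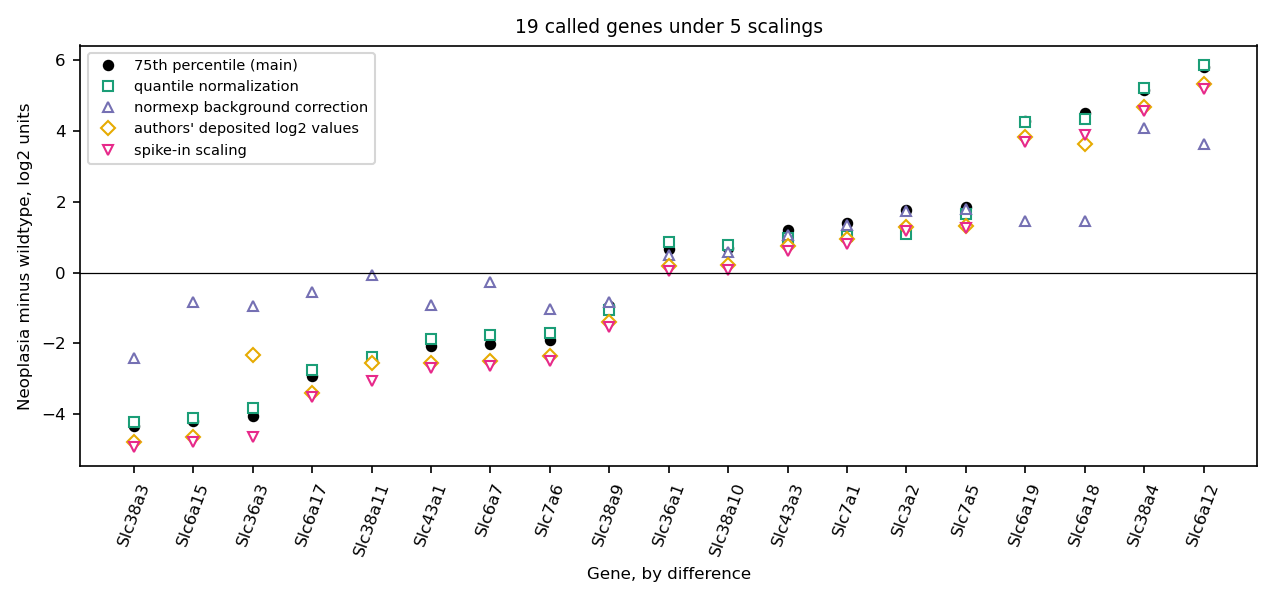
Difference of 19 of the 20 called genes between neoplasia and wildtype, in log2 units, under 5 scalings: the 75th percentile, quantile normalization, normexp background correction, the authors' deposited log2 values and spike-in controls. None of them changed sign. With normexp the dim genes had smaller differences (Slc6a18 1.44, Slc6a15 -0.83), and with the spike-in and deposited values most points lay lower.

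Lists of related genes were counted in the same way. Each count is to be read beside the 16.8% of all features called higher and the 13.5% called lower. The targets of the integrated stress response, the program that the factor ATF4 runs when amino acids are short, were mostly higher. Of 24 tested genes, 18 were higher and 1 lower, with a median difference of 1.58, beside 0.13 for all features. Any part of this program in the levels of the transporters was not tested. Gpt2, a mitochondrial alanine transaminase, had the largest rise of the list, from 0.36, 0.76 and 0.29 in wildtype to 6.19, 6.34, 6.37, 6.63 and 4.78 in the neoplasia (5.59 ± 0.41 (SE), limma adjusted p = 8.41e-05). Chac1, which degrades glutathione, Trib3, a pseudokinase that restrains ATF4, and the related factor Atf5 were higher by 3.25, 3.10 and 2.98 (limma adjusted p = 0.00116, 0.00079 and 0.000717). Atf4 itself, named after its value was seen, was higher by 1.58. The 1 fall was in Aldh18a1, an enzyme of proline synthesis also named after its value was seen (-1.11). Without any 1 array, 14 to 18 were higher. With slide row as a block 8 were, and with spike-in scaling 6.

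Of the cytosolic aminoacyl-tRNA synthetases, which load amino acids onto their tRNAs, 9 of 20 were higher and none lower, led by Gars (1.495), Nars (1.41), Sars (1.23) and Cars (1.22). The count was 3 without wildtype 1 or 2, 5 without wildtype 3, neoplasia 3 or neoplasia 4, 6 without neoplasia 1, and 0 with spike-in scaling or with slide row as a block. In glutamine and glutamate metabolism 7 of 17 genes were higher and 2 lower. Besides Gpt2 the largest were the glutamine synthetase Glul (3.50 ± 0.65 (SE), limma adjusted p = 0.00707) and both subunits of the enzyme that starts glutathione synthesis, Gclm (2.21) and Gclc (1.94). At least 7 were higher on leaving out any array, 2 with spike-in scaling and 3 in the fit blocked on slide row.

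In serine, glycine and one-carbon metabolism 5 of 15 genes were higher and 2 lower. The glycine decarboxylase Gldc was higher by 4.94 ± 0.62 (SE, limma adjusted p = 0.00131), Mthfd1l, which makes formate in mitochondria, by 3.88, and the serine synthesis enzymes Psph and Psat1 by 2.93 and 2.30. The fit blocked on slide row left 2 of the list higher. Of 36 tested genes of amino acid sensing by mTORC1, 8 were higher and 3 lower, a share near that of all features. Among them were the leucine sensor relative Sesn3 (-3.60), the folliculin partner Fnip2 (1.87) and the mTORC1 activator Rheb (1.31). Higher genes numbered 1 without wildtype 1 or 2, 3 without wildtype 3, 5 without neoplasia 3 or 4, 2 in the authors' deposited values, 1 with slide row as a block and 0 with spike-in scaling.

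The smaller lists had few calls, beside 16.8% higher and 13.5% lower among all features. In arginine and polyamine metabolism 4 of 19 were higher: the polyamine acetylase Sat1 (2.79, from 2 wildtype arrays because the spot of wildtype 3 had an outlier mark), the S-adenosylmethionine decarboxylase Amd2 (1.65), the arginase Arg2 (1.62) and the nitric oxide synthase Nos3 (1.51). That count was 1 without wildtype 1 or 2, 2 without wildtype 3, 7 without neoplasia 2 and 0 with slide row as a block. In branched-chain amino acid and tryptophan breakdown 3 of 12 were higher and 1 lower. The tryptophan dioxygenase Tdo2 rose 2.48-fold against the floor, with 2 wildtype values, but had the opposite direction in the authors' deposited log2 values. The kynurenine pathway enzyme Afmid rose by 1.28 and Bckdk, the kinase of the branched-chain complex, by 0.86. Ppm1k, the phosphatase of that complex, was lower (-1.18). Without any 1 of the wildtype arrays 0 were higher and 0 lower, and 1 was higher without neoplasia 1, 3 or 4. In taurine and creatine synthesis 1 of 8 was higher (the cysteine dioxygenase Cdo1, 2.58) and 1 lower (Bhmt, which uses betaine, -4.07), and both lost their call without any 1 of the wildtype arrays, Cdo1 also without neoplasia 1, 2 or 3 and Bhmt also without neoplasia 1, 4 or 5.

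Among 15 tested amino acid and peptide carriers of other families, 5 were higher and 1 lower, and the fit blocked on slide row left 1 higher. The mitochondrial carriers Slc25a29 (basic amino acids, 3.57 ± 0.71 (SE), limma adjusted p = 0.00903), Slc25a13 (aspartate and glutamate, 3.30) and Slc25a2 (ornithine, 4.34-fold against the floor) were higher. Slc25a18 (glutamate, -4.08) was lower. Of the related proteins outside the rule, Arl6ip5, which binds the glutamate carrier Slc1a1, was higher by 1.86 (limma adjusted p = 0.00503), and Slc7a11 differed by -0.99 ± 0.98 (SE, adjusted p = 0.456).

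**Figure D5:**
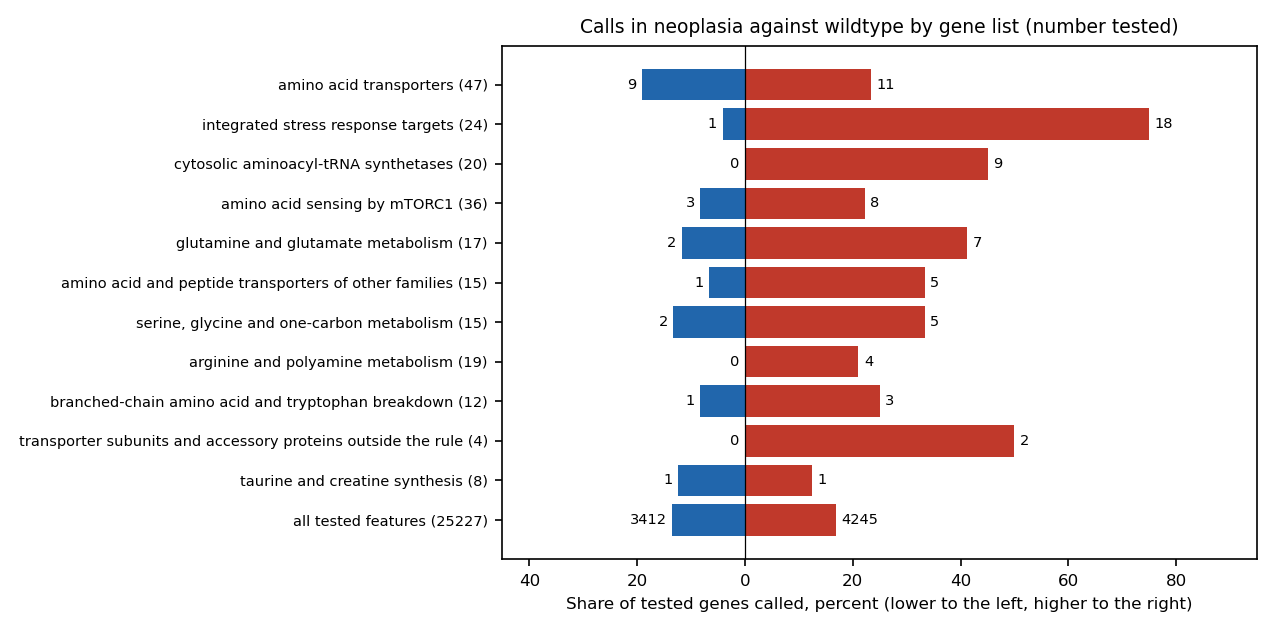
Share of the tested genes of each list that were called higher (red, to the right) or lower (blue, to the left) in neoplasia against wildtype, in percent, with counts at the bars and the number tested in brackets. The integrated stress response list has 18 of 24 genes higher, and the bar of all features shows 4245 higher and 3412 lower of 25227. Some genes, such as Gpt2, are in more than 1 list.

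Macrophage and erythrocyte markers were also higher, with 9 of 11 and 7 of 7 called (summed levels of 5.65 to 5.95 and 5.32 to 6.84 in wildtype, and of 7.01 to 7.98 and 10.05 to 11.46 in the neoplasia). The macrophage count was 2 with spike-in scaling, 3 in the authors' deposited values and 3 in the fit blocked on slide row. The erythrocyte count stayed 7 in those fits. Their part in the rises of Slc3a2, Slc7a5, Slc7a1 and Slc43a3 was not tested. Theca and interstitial markers had 4 of 8 lower and epithelial markers 2 higher and 5 lower of 12. Endothelial markers had 2 of 8 higher, T cell markers 2 of 8 higher, and pancreas markers 1 higher and 1 lower of 6. Among all features 16.8% were higher and 13.5% lower. On omission of 1 array the theca count fell to 2 (wildtype 1, 2 or 3 or neoplasia 4) and the lower epithelial count to 2 (wildtype 1) or 3 (wildtype 2). The endothelial count was then 0 (wildtype 1 or 2), 1 (wildtype 3 or neoplasia 3 or 4) or 4 (neoplasia 1), and the T cell count 0 (wildtype 1, 2 or 3) or 1 (neoplasia 3 or 4).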

How the data were processed

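Of the deposited scanner files, spot intensity on a linear scale was used. Per the file headers, it was made with Agilent Feature Extraction 11.0.1.1 on an mm9 grid, background-subtracted and detrended. The deposited table of the authors holds log2 values. All 37932 of its rows lay within 0.001 of log2 of the mean processed intensity per feature name, so it is neither centred nor scaled between arrays. Partek also appears in the submitters' processing notes, for a purpose not given in the sources used here.

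Main values were log2 processed intensity, from which the 75th percentile over all non-control spots of that array was subtracted. Spots with an outlier mark were dropped and spots of a probe averaged. Testing required a probe to be well above background on 3 or more arrays, and each gene was represented by its brightest probe on average. Groups were compared with limma 3.58.1 (lmFit, eBayes) in R 4.3.3, two-sided, without covariates, with Benjamini-Hochberg adjustment over 25227 features. For folds against the floor, the brighter group's mean was set against the dim probe's value. Where that value was below the lowest signal of any probe above background on that array, the latter took its place. That floor is not the detection limit of the probe, so the fold is no lower bound. An adjusted p printed beside such a fold is that of the fitted difference, which uses signals below background, and does not test the fold. Accessions without versions matched RefSeq (GRCm38.p6) symbols for 26582 of 55681 probes (47.7%). The number of arrays limits the precision. The test was checked on simulated data.

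The members and lists were chosen with earlier results of these data known. Called members (up to 12 in each direction), the heavy chains and their light chains are given array by array, the other members by their difference, and up to 4 called genes of each list by size. Marker genes and uncalled list genes named in the text were chosen after their values were seen. The alternatives were normexp (offset 50, on median signals), quantile normalization, spike-in scaling, the deposited log2 values, no filter, a filter on all 8 arrays, the mean over probes, eBayes with trend and robust, array weights, blocks of replicate number or slide row, slide row 2 alone, and each array left out. Replicate numbers come from the sample titles. Values of 1 member and of 2 list genes are not reported here, although the counts include them.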

Additional observations from a re-analysis of the deposited data

Results flagged for a closer look

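Among the 47 transporters no array stood apart from its group of 5 neoplasia arrays by Dixon's test, and among 35 list genes 2 had such an array, where chance gives about 1 in 20. Sat1, which acetylates polyamines, was at 5.74 on neoplasia 4 and at 4.26 to 4.55 on the other neoplasia arrays. Gpt2, the alanine transaminase, was at 4.78 on neoplasia 5 and at 6.19 to 6.63 on the others.

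Of the untested transporters, 3 had a probe above background on 1 neoplasia array and on no wildtype array. The dopamine carrier Slc6a3 (probe A_51_P214187) was at -2.97 on neoplasia 1, with wildtype arrays at -5.58 to -5.07. Slc7a15 (probe A_55_P1978932) was at -3.33 on neoplasia 1, with wildtype arrays at -7.31 to -6.91. The glutamate carrier Slc1a2 (probe A_55_P2392625) was at -3.70 on neoplasia 5, with wildtype arrays at -7.46 to -7.29.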

How the results depend on the processing

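The 11 members called higher became 4 with spike-in scaling, 7 in the authors' deposited log2 values, 7 with the replicate block, 4 with slide row as a block, 7 in slide row 2 alone, and 6 to 11 on leaving out each array. The 9 called lower became 3 when every array had to be above background (27 members tested, which leaves out those dim in 1 group), 4 with slide row as a block, and 5 to 12 on leaving out each array. The 7657 called features became 4901 with spike-in scaling, 12971 with array weights, 4692 with the replicate block, 1543 with slide row as a block, and 2833 to 9990 on leaving out each array. Among the 23 genes followed, changes of sign came in uncalled genes and in Slc43a1: Slc3a1 was 0.26 with normexp, Slc7a7 was 0.040 with array weights, 0.11 with the replicate block, 0.15 with slide row as a block and in slide row 2 alone, and between -0.26 and 0.12 on leaving out each array, Slc43a1 was 0.040 and Slc7a8 -0.37 with slide row as a block and in slide row 2 alone. The cause was not tested. Same-numbered arrays of the groups had correlations of their deviations from group means of -0.05, -0.03 and -0.0014. Differently numbered arrays had -0.06 to 0.09. Deviations from a mean of so few arrays are tied to each other, so these values cannot decide whether replicate numbers pair the samples. Signals near background limit the dim genes: with normexp 4 calls were lost (Slc38a11, Slc43a1, Slc6a17, Slc6a7), and Slc6a18 and Slc6a19 differed by 1.44 each.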
